A study of Mus musculus with 10 samples.

Results

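The signaling route of leukemia inhibitory factor (LIF) was followed through 8 genes in mouse embryonic stem cells: the receptor chain genes Lifr and Il6st, the transcription factor gene Stat3, and Socs3, Pim1, Pim3, Junb and Emp1, which are reported to respond to Stat3. Members were taken as every bead array probe that the platform annotation gives one of these symbols. Of the 8 genes, 7 had a named probe and Pim1 had none, so Pim1 was not analysed here. The 7 genes had 8 probes, 2 of them for Stat3, among 17775 probes kept out of 45281 on the array. All 8 passed the filter on detection, but so did all 14281 probes that the annotation gives 1 symbol. Passing is therefore no result about these genes. Whether the array holds a probe for a gene without a named one, such as Pim1, cannot be told here.

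RNA of 5 lines of G-CCE mouse embryonic stem cells was hybridized to Illumina bead arrays at 2 time points, with 1 array for each line and day. At d3 LIF had been absent from the medium for 3 days, and at d0 the cells grew on gelatin, without feeders, in medium with serum and 1000 U/mL LIF. The line labelled MMTR KD was transduced with a lentivirus for a short hairpin RNA against MMTR (Dmap1), a subunit of the Tip60-p400 chromatin complex. The lines labelled MMTR-F, MMTR-C and MMTR-N were transfected with Flag-tagged full-length MMTR, with the C-terminal part that begins at residue 221, and with residues 1 to 220. The label of WT names no construct. The study calls its controls wild-type in places and mock in others, so whether WT carries an empty vector is not known here. Each line is represented by a single array on each day, and no array labelled as an empty-vector line was used. Effects of a plasmid or lentivirus and of its insert cannot be told apart. In the differentiation protocol of the study, cells were aggregated in hanging drops, so LIF withdrawal and aggregation cannot be told apart.

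LIF binds a pair of receptor chains, LIFR and gp130 (the product of Il6st), whose associated JAK kinases phosphorylate STAT3. Phosphorylated STAT3 enters the nucleus and activates genes with sites of the form TTCNNNGAA, among them Socs3, whose product shuts the receptor off, and in mouse embryonic stem cells this route holds back differentiation. The arrays measure RNA, so the phosphorylation itself is not in these data.

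Sequences before a transcript start of Emp1, Socs3 and Pim3, the 3 target genes that fell most, are shown because the STAT motif could be searched in them. Each is the 250 bases before a transcript start in RefSeq (GRCm38.p6), written 5′ to 3′ on the strand of the gene, with TTCNNNGAA in capitals. The Emp1 and Socs3 windows lie inside the annotated genes (chr6:135362550-135383173 and chr11:117966079-117970336). They thus precede an internal transcript start, not the 5′ end of the gene. The Pim3 window ends where the annotated gene begins (chr15:88862194). The motif reads the same on both strands and no other motif was searched.
Emp1, chr6:135362681-135362930, plus strand: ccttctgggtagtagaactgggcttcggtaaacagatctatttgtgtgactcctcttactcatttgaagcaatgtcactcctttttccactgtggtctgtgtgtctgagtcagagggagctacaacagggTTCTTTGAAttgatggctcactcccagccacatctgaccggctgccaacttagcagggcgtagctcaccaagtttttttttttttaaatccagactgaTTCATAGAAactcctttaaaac
Socs3, chr11:117969367-117969616, minus strand: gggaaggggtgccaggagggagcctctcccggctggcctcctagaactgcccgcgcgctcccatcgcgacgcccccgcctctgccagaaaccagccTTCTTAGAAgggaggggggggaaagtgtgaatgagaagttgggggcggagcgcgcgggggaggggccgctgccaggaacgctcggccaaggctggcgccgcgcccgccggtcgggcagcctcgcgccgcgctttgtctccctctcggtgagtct
Pim3, chr15:88861944-88862193, plus strand: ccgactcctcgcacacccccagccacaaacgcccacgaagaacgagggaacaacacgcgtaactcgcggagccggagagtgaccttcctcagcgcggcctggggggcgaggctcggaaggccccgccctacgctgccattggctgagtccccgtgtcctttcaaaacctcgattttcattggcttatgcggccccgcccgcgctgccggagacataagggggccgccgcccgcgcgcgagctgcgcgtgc
The Emp1 window shown held TTCTTTGAA at position -120 and TTCATAGAA at position -22, counted from the start site to the first base of the match, the Socs3 window held TTCTTAGAA at position -154, and the Pim3 window held none. A second Emp1 window, chr6:135367243-135367492 at another transcript start, held none either. The letters occurred in 2 of the 11 windows of the member genes (18.2%) and in 7.02% of all 32851 windows of this length. A match is a description of the sequence, and a window with no match says nothing of sites elsewhere.

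The signals of the kept probes were quantile normalized after taking log2, so each value below is a normalized log2 signal, and a difference of 1 is a change of 2-fold. Raw median signals were 337 to 347 at d3 and 218 to 244 at d0, and no label gives the run in which an array was hybridized, so day and run cannot be told apart. As a check of the labels, the probe of Dmap1 stood above WT by 1.58 at d3 and 1.42 at d0 in MMTR-C, while its differences from WT were -0.08 at d3 and -0.07 at d0 in MMTR-N, -0.24 at d3 and -0.11 at d0 in MMTR-F, and -0.04 at d3 and 0.19 at d0 in MMTR KD. Line names below are therefore those of the labels, which this probe bore out only for the library labelled MMTR-C. Of 8 genes that mark undifferentiated embryonic stem cells, all were measured, 5 fell at d3 and 1 rose, with summed raw signals of 69239.5 to 105817 at d3 and 110235 to 155867 at d0. All 5 genes of a primed epiblast list rose, with sums of 43399.6 to 89665 at d3 and 9194 to 25304.5 at d0. Otx2, Dnmt3b, Pou3f1 and Sall2 of that list are also among the genes that the study itself reports as raised during differentiation. Their rise in the same arrays is therefore no independent check. Pou5f1, Nanog and Sox2 of the undifferentiated list are pluripotency markers whose change the study reports too, so the fall of that list is none either. Over all kept probes, 24.7% fell and 24% rose. Of lists for other cells that such a culture can hold, 2 of 9 genes of primitive and visceral endoderm, 1 of 6 of trophectoderm, 1 of 5 of mesoderm, 1 of 7 of fibroblasts and 1 of 6 of macrophages were measured. Among these, the endoderm gene Dab2 rose by 1.10 in log2 over the lines and the other endoderm gene, Sox7, fell by 0.86, while Krt8 rose by 0.97, Thy1 by 0.54 and Mixl1 by 0.33, and Csf1r differed by 0.05 and did not pass. Their summed raw signals at d3 and at d0 were 1226 to 2427 and 616 to 1952 for endoderm. For trophectoderm (Krt8) they were 1046 to 2231 and 428 to 1216, and for mesoderm (Mixl1) 367 to 603 and 235 to 255. For fibroblasts (Thy1) they were 1007 to 1451 and 443 to 1008, and for macrophages (Csf1r) 351 to 394 and 226 to 268. Background was not subtracted from these signals, so a sum above 0 does not show that a cell type was present. The sums of all lists here are of raw signals, whose medians were higher at d3, so the days cannot be compared by them directly. Csf1r was detected on 3 of 5 arrays at d3 and 4 of 5 at d0, and Mixl1 on 4 of 5 and 2 of 5. In whole-culture RNA, fewer cells of a type and less RNA per cell cannot be told apart, and the part of these shifts in the results below was not tested.

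Of the 7 measured genes, 6 fell over the 5 lines at d3 and none rose (limma with line and day as terms, two-sided, adjusted p under 0.05 over all kept probes). Emp1, Socs3, Pim3, Stat3, Junb and Lifr were each lower at d3 in 5 of 5 lines, and Il6st was lower in 4 of 5 and did not pass the test. Over all kept probes, 24.7% fell and 24% rose by the same test. For the same 6 genes, every d3 array lay below every d0 array, as it did for 13.9% of all kept probes. The median difference over the 7 genes was -1.51 on the log2 scale, beside 0.00 over all kept probes. Spread between lines is the error behind these tests, since each line and day has 1 array, and the p-values do not measure the spread between cultures of 1 line.

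**Figure D1:**
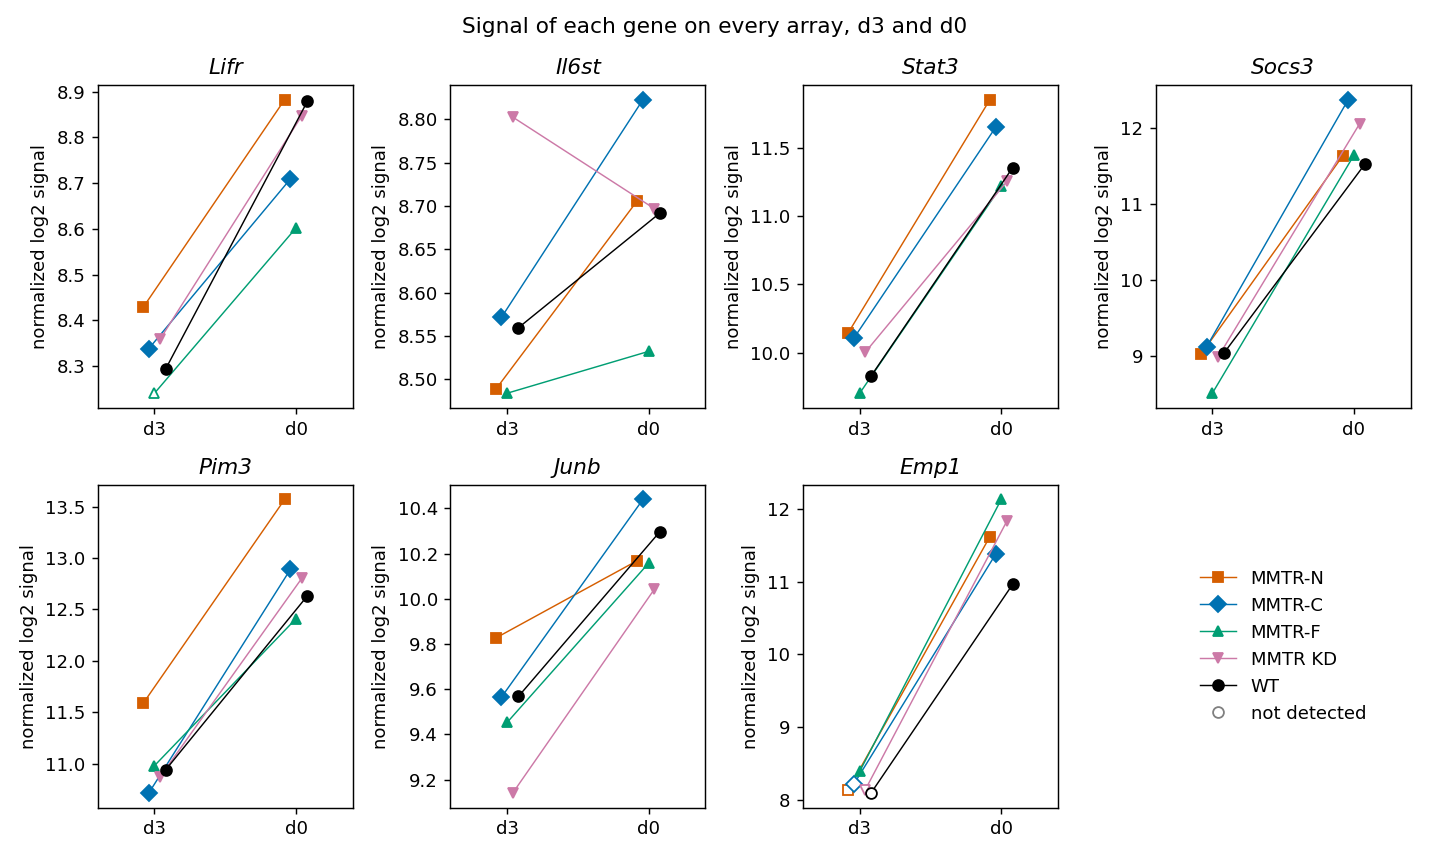
Normalized log2 signal of each measured gene on all 10 arrays, with d3 at the left and d0 at the right of each panel, a colour and symbol for each line, lines joining the 2 days of a line, and open symbols for arrays on which the probe was not detected. Scales differ between panels. Every d3 value lies below every d0 value except for Il6st, and Emp1 was detected at d3 only in MMTR-F.

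Without background correction, the receptor chains had the smallest differences of the 7 genes. Lifr, the LIF-specific chain, had log2 signals at d3 of 8.43 in MMTR-N, 8.34 in MMTR-C, 8.24 in MMTR-F, 8.36 in MMTR KD and 8.29 in WT, against 8.88 in MMTR-N, 8.71 in MMTR-C, 8.60 in MMTR-F, 8.85 in MMTR KD and 8.88 in WT at d0. The days did not overlap, with the lowest d0 array 0.17 above the highest d3 array, and the d3 signal of MMTR-F was not above background. Over the lines Lifr fell by 0.45 on the log2 scale (SE 0.0546, limma adjusted p = 0.000417). All Lifr signals were within 1 log2 unit of the array background, where signals that are not background-subtracted understate a change. With RMA background correction the Lifr difference was -1.77, larger than that of Junb (-1.10), and with normexp correction -0.75, beside -0.85 for Junb. The rank of Lifr among the 7 genes therefore depends on the background correction.

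Il6st encodes gp130, the chain shared by the receptors of the IL-6 family. Its log2 signals at d3 were 8.49 in MMTR-N, 8.57 in MMTR-C, 8.48 in MMTR-F, 8.80 in MMTR KD and 8.56 in WT, against 8.71 in MMTR-N, 8.82 in MMTR-C, 8.53 in MMTR-F, 8.70 in MMTR KD and 8.69 in WT at d0. The days overlapped, and MMTR KD was the only line with the higher value at d3. The difference over the lines was -0.11 (SE 0.0648, limma adjusted p = 0.197), and under median scaling in place of quantile normalization it was 0.00. Under RMA background correction it was -0.41 (adjusted p = 0.125), so a change of this dim probe was not detectable here, which does not show that Il6st stayed level.

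Stat3, the transcription factor that carries the signal to the nucleus, had 2 probes. On the brighter one the log2 signals at d3 were 10.15 in MMTR-N, 10.11 in MMTR-C, 9.70 in MMTR-F, 10.005 in MMTR KD and 9.83 in WT, against 11.85 in MMTR-N, 11.65 in MMTR-C, 11.22 in MMTR-F, 11.25 in MMTR KD and 11.35 in WT at d0. All d3 arrays were more than 1 log2 unit below all d0 arrays. Stat3 averaged 9.96 ± 0.19 at d3 and 11.47 ± 0.27 at d0 (SD, n = 5 lines), and fell by 1.51 on the log2 scale (SE 0.0693, limma adjusted p = 1.24e-05), 2.84-fold. The second probe of Stat3 read 9.37 in MMTR-N, 9.58 in MMTR-C, 9.11 in MMTR-F, 9.48 in MMTR KD and 9.40 in WT at d3, against 10.76 in MMTR-N, 10.68 in MMTR-C, 10.25 in MMTR-F, 10.65 in MMTR KD and 10.29 in WT at d0. On it Stat3 fell by 1.14 (SE 0.0722, adjusted p = 3.29e-05), the same direction in 5 of 5 lines. The probes placed the lines in different orders: the smallest difference was in MMTR KD on the first (-1.25) and in WT on the second (-0.90), and the largest was in MMTR-N on both (-1.70 and -1.39).

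Among the targets, Emp1, an epithelial membrane protein gene, differed most. Its log2 signals at d3 were 8.14 in MMTR-N, 8.22 in MMTR-C, 8.39 in MMTR-F, 8.14 in MMTR KD and 8.09 in WT, against 11.62 in MMTR-N, 11.38 in MMTR-C, 12.13 in MMTR-F, 11.84 in MMTR KD and 10.96 in WT at d0. Only MMTR-F had an Emp1 signal above background at d3, so the d3 values of the other 4 lines have no order. Emp1 fell by 3.39 log2 units over the 5 lines (SE 0.126, limma adjusted p = 6.09e-06). Set against the lowest detected signal of each d3 array, it was at least 10.3-fold lower at d3 in MMTR-N, at least 8.57-fold in MMTR-C, at least 11.8-fold in MMTR KD and at least 6.59-fold in WT, and in MMTR-F it was 13.4-fold lower. Under RMA background correction the Emp1 difference over the lines was -6.75. At d0, where all lines were above background, Emp1 ranged over 1.17 log2 units and WT was the lowest.

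Socs3 encodes the feedback inhibitor that binds gp130 and the JAK kinases. At d3 its log2 signals were 9.03 in MMTR-N, 9.13 in MMTR-C, 8.51 in MMTR-F, 8.99 in MMTR KD and 9.04 in WT, against 11.63 in MMTR-N, 12.37 in MMTR-C, 11.64 in MMTR-F, 12.06 in MMTR KD and 11.53 in WT at d0. The gap between the days was wide, with the lowest d0 array 2.41 above the highest d3 array. Socs3 averaged 8.94 ± 0.24 at d3 and 11.85 ± 0.36 at d0 (SD, n = 5 lines), and fell by 2.91 on the log2 scale (SE 0.116, limma adjusted p = 8.3e-06), 7.51-fold. MMTR-F lay apart at d3, 0.52 below WT, with the other 4 lines between 8.99 and 9.13.

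Pim3, a serine/threonine kinase gene of the Pim family that promotes cell survival, had 1 probe. Its log2 signals at d3 were 11.59 in MMTR-N, 10.72 in MMTR-C, 10.98 in MMTR-F, 10.87 in MMTR KD and 10.94 in WT, against 13.57 in MMTR-N, 12.89 in MMTR-C, 12.41 in MMTR-F, 12.80 in MMTR KD and 12.63 in WT at d0. The days did not overlap, and MMTR-N was the highest line on both. Pim3 averaged 11.02 ± 0.33 at d3 and 12.86 ± 0.44 at d0 (SD, n = 5 lines), and fell by 1.84 on the log2 scale (SE 0.102, limma adjusted p = 2.19e-05), 3.58-fold.

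Junb encodes a component of the AP-1 transcription factor. Its log2 signals at d3 were 9.83 in MMTR-N, 9.56 in MMTR-C, 9.45 in MMTR-F, 9.14 in MMTR KD and 9.57 in WT, against 10.17 in MMTR-N, 10.44 in MMTR-C, 10.16 in MMTR-F, 10.04 in MMTR KD and 10.30 in WT at d0. The highest d3 array, MMTR-N, was 0.22 below the lowest d0 array, MMTR KD. Over the lines Junb fell by 0.71 (SE 0.0842, limma adjusted p = 0.000383), 1.64-fold, the smallest fall among the 4 measured targets.

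**Figure D2:**
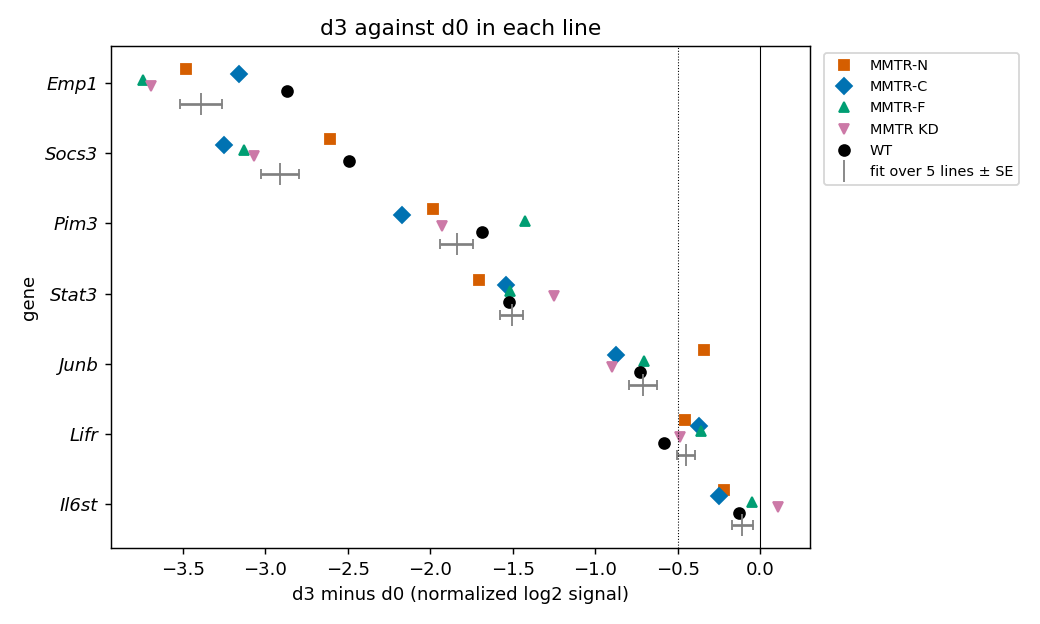
Log2 difference of d3 minus d0 for each gene, in order of size, with 1 symbol for each line and a grey bar for the value fitted over the 5 lines ± its standard error. The dotted line marks -0.5. Emp1 and Socs3 lie between -3.74 and -2.50 in every line, and Il6st between -0.25 and 0.11. The Emp1 symbols of all lines but MMTR-F rest on d3 signals not above background and have no order. The Lifr symbol of MMTR-F rests on such a signal too.

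To see whether the change between days, with LIF withdrawn and cells aggregated, was alike in every line, the differences were set side by side within lines. At a log2 difference of 0.5, the number of the 7 genes lower at d3 was 4 in MMTR-N, where 8.46% of kept probes were lower by as much, 5 in MMTR-C (8.76%), 5 in MMTR-F (6.5%), 5 in MMTR KD (8.01%) and 6 in WT (8.75%). No gene was higher by 0.5 in any line. Emp1, Socs3, Pim3 and Stat3 were past this difference in 5 of 5 lines, Junb in all but MMTR-N, Lifr in WT alone and Il6st in none. The median over the 7 genes was -1.70 in MMTR-N, -1.54 in MMTR-C, -1.43 in MMTR-F, -1.25 in MMTR KD and -1.52 in WT, and the median over all kept probes lay between -0.01 and 0.00 in each line.

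The order of the differences, without background correction, was nearly shared. Ranked by size, it ran Emp1, Socs3, Pim3, Stat3, Junb, Lifr and Il6st in MMTR KD and WT, where Emp1 stays first with its d3 signal at the detection bound. Stat3 and Pim3 changed places in MMTR-F (-1.52 and -1.43), and Lifr and Junb in MMTR-N (-0.45 and -0.34). In MMTR-C the order of Socs3, 9.503-fold lower, and Emp1, at least 8.57-fold lower, cannot be told, nor can the place of Lifr in MMTR-F, at least 1.25-fold lower, beside Junb, 1.63-fold lower. With 1 array per line and day, a difference between lines in the change from d0 could not be tested.

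Sizes varied between lines. The d3 minus d0 difference of Socs3 was -2.61 in MMTR-N, -3.25 in MMTR-C, -3.13 in MMTR-F, -3.07 in MMTR KD and -2.50 in WT. That of Pim3 was -1.98 in MMTR-N, -2.17 in MMTR-C, -1.43 in MMTR-F, -1.93 in MMTR KD and -1.69 in WT. For Emp1 the measured differences were -3.48 in MMTR-N, -3.16 in MMTR-C, -3.74 in MMTR-F, -3.70 in MMTR KD and -2.87 in WT, of which all but that of MMTR-F run into the background at d3 and have no order. WT had the smallest difference of the 5 lines for Socs3. The SD of the measured difference over lines was 0.37 for Emp1, 0.34 for Socs3, 0.29 for Pim3, 0.22 for Junb, 0.16 for Stat3, 0.14 for Il6st and 0.09 for Lifr. Their median of 0.22 stood beside 0.15 over all kept probes.

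Leaving out each line in turn, the difference over the other 4 lay between -3.52 and -3.30 for Emp1, -3.01 and -2.82 for Socs3, -1.94 and -1.76 for Pim3, -1.57 and -1.46 for Stat3, -0.80 and -0.66 for Junb, and -0.47 and -0.42 for Lifr. These 6 passed the test whichever line was left out. Il6st lay between -0.16 and -0.07 and did not pass in any of these fits.

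Next, each line was set against WT. Over both days, 0 of the 7 genes passed limma in any of the 4 lines, where the share of kept probes called was 0.0731% in MMTR-N, 0.0169% in MMTR-C, 0.045% in MMTR-F and 3.31% in MMTR KD. At an unadjusted p under 0.05, 7 of the 28 combinations of gene and line passed. With the share of kept probes passing likewise in brackets, these were Stat3 and Pim3 in MMTR-N (14.7%) and Stat3 and Socs3 in MMTR-C (9.01%). The others were Emp1 in MMTR-F (15.4%) and Junb and Emp1 in MMTR KD (20.4%). On the second Stat3 probe MMTR-C also passed (0.28 above WT, limma unadjusted p = 0.0371), but MMTR-N did not (0.23, limma unadjusted p = 0.0834). Robust trended variances also gave 0 of 28 after adjustment. The largest was Pim3 in MMTR-N, 0.79 above WT (SE 0.161, limma adjusted p = 0.138), which was higher by 0.64 at d3 and 0.94 at d0. The 2 arrays of a line are its only repeat in this fit, so these standard errors do not cover the spread between independent cultures.

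On single days, a difference from WT of 0.5 or more at d3 was seen for 1 of 7 genes in MMTR-N (8.35% of kept probes), 0 in MMTR-C (0.99%), 1 in MMTR-F (7.13%) and 0 in MMTR KD (6.22%). These were Socs3 in MMTR-F, at -0.52, and Pim3 in MMTR-N, at 0.64. At d0 the counts were 2 in MMTR-N (3.23%), 1 in MMTR-C (4.8%), 1 in MMTR-F (5.19%) and 2 in MMTR KD (9.64%), all of them above WT.

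At d0 all 6 were targets of the route, with Pim3 in MMTR-N 0.94 above WT and the others Emp1 or Socs3. Emp1 stood above WT by 1.17 in MMTR-F, 0.66 in MMTR-N, 0.87 in MMTR KD and 0.41 in MMTR-C, so WT was the lowest of the 5 lines. Socs3 was above WT by 0.84 in MMTR-C and 0.52 in MMTR KD, while MMTR-N was 0.10 and MMTR-F 0.11 above it. Stat3 itself stayed under the difference counted in all 4 lines. Its brighter probe stood at 0.50 for MMTR-N, just below it, 0.30 for MMTR-C, -0.10 for MMTR KD and -0.13 for MMTR-F. The second probe gave 0.47 for MMTR-N, 0.39 for MMTR-C, 0.36 for MMTR KD and -0.04 for MMTR-F. The sign for MMTR KD thus depends on the probe. For MMTR-N, Socs3 lay nearer to WT than Stat3 did on either probe. All 4 lines share the WT array of the day, so a high or low WT value would move them together, and 1 array per day gives no test of it.

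**Figure D3:**
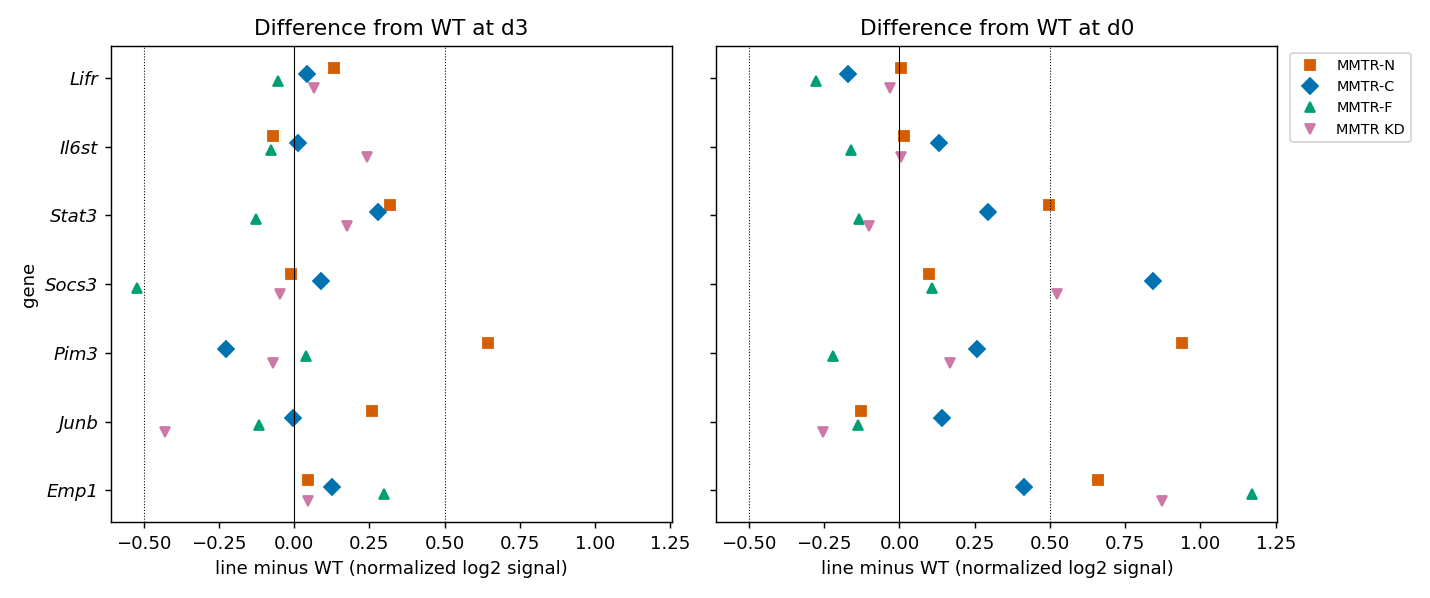
Log2 difference of each line from WT for the 7 genes, at d3 in the left panel and at d0 in the right panel, with dotted lines at -0.5 and 0.5. At d3 Socs3 in MMTR-F and Pim3 in MMTR-N are past 0.5, and at d0 Emp1 is above WT in all 4 lines, from 0.41 to 1.17.

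Junb lies on chromosome 8 (GRCm38.p6 84976909 to 84978748), and the genes of that chromosome stood together below WT in the MMTR KD library. The median difference from WT over 814 probes of genes on chromosome 8 was -0.31 at d3 and -0.26 at d0, while 13453 probes of genes elsewhere had medians of 0.00 and 0.02. Junb in MMTR KD differed from WT by -0.43 at d3 and -0.26 at d0. Relative to the chromosome's median it differed by -0.12 at d3 and 0.00 at d0, and 32.8% of the chromosome's probes at d3 and 50.9% at d0 lay further below WT. In the other 3 lines the chromosome's medians lay between -0.03 and 0.03. The part of the whole-chromosome shift in the Junb value was not tested.

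Further genes of the route were counted from lists with the same test over the lines, by which 24.7% of all kept probes fell and 24% rose. Among other genes reported to respond to LIF or STAT3 in mouse embryonic stem cells, 9 of 10 were measured, 6 fell, 0 rose and 3 did not pass. Gbx2, a homeobox gene, fell by 3.26 on the log2 scale, Klf4 and Klf5, both Krüppel-like factor genes of the pluripotency network, had differences of -3.07 and -2.43, and Tfcp2l1, another transcription factor gene of that network, one of -2.33. Bcl3, which encodes a nuclear IκB family protein, fell by 1.36, and Myc by 0.24, a dim probe detected on 2 of 5 arrays at d3 and 4 of 5 at d0. Zfp36, Ier3 and Rgs16 had differences of 0.38, 0.34 and 0.03 and did not pass. The list's median was -1.36. Klf4 is also among the pluripotency markers whose change the study reports from these arrays, so its fall is no independent check.

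Kinases and adaptors moved both ways. Of 15 genes, 11 were measured, 4 fell and 5 rose. Of the JAK kinases, Jak1 rose by 1.03 (SE 0.089, limma adjusted p = 9.49e-05) on its brighter probe and fell by 0.24 on a dimmer one, so its direction depends on the probe. Jak2 rose by 0.50, Tyk2 fell by 0.92 and Jak3 by 0.64. Gab1, an adaptor of receptor kinases, fell by 0.62, and Map2k1, which encodes the kinase MEK1, by 0.77. Ptpn11, which encodes the phosphatase SHP2 that links gp130 to the Ras pathway, rose by 0.32, and its other 2 probes rose too.

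Of the other STAT genes, 3 of 6 were measured: Stat4 fell by 0.66 and Stat6 by 0.32, and Stat2 rose by 0.22. The difference of Stat3, -1.51, was larger than these. Negative regulators were measured for 14 of 15 genes, of which 6 fell, 2 rose and 6 did not pass, with a median of -0.17. In the Socs family, Socs3 fell by 2.91, while Socs2, Socs5 and Socs6 had differences of 0.00, -0.03 and -0.01 that did not pass, Socs4 fell by 0.16 and Socs7 by 0.21. Pias2, a SUMO ligase gene of the family named for inhibiting STATs, fell by 0.68, and the phosphatase genes Ptpn1 and Ptpn6 by 0.43 and 0.35. Dusp6, an ERK phosphatase gene, rose by 0.49 on its brightest probe (limma adjusted p = 0.0495), while its other 2 probes gave -0.14 each and did not pass.

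Relatives of the members moved both ways. Pim2 rose by 1.18 (SE 0.108, limma adjusted p = 0.000121), with differences between 0.88 and 1.61 in the 5 lines, where Pim3 fell by 1.84. Fos, a partner of Junb in AP-1, fell by 0.92 and was lower in 5 of 5 lines, and Jund had a difference of 0.22 that did not pass. Emp3 fell by 0.43 on its brighter probe. Only 2 of 10 ligands and partner receptors were measured, Ctf1 and Il6ra, with differences of -0.12 and -0.05 that did not pass.

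**Figure D4:**
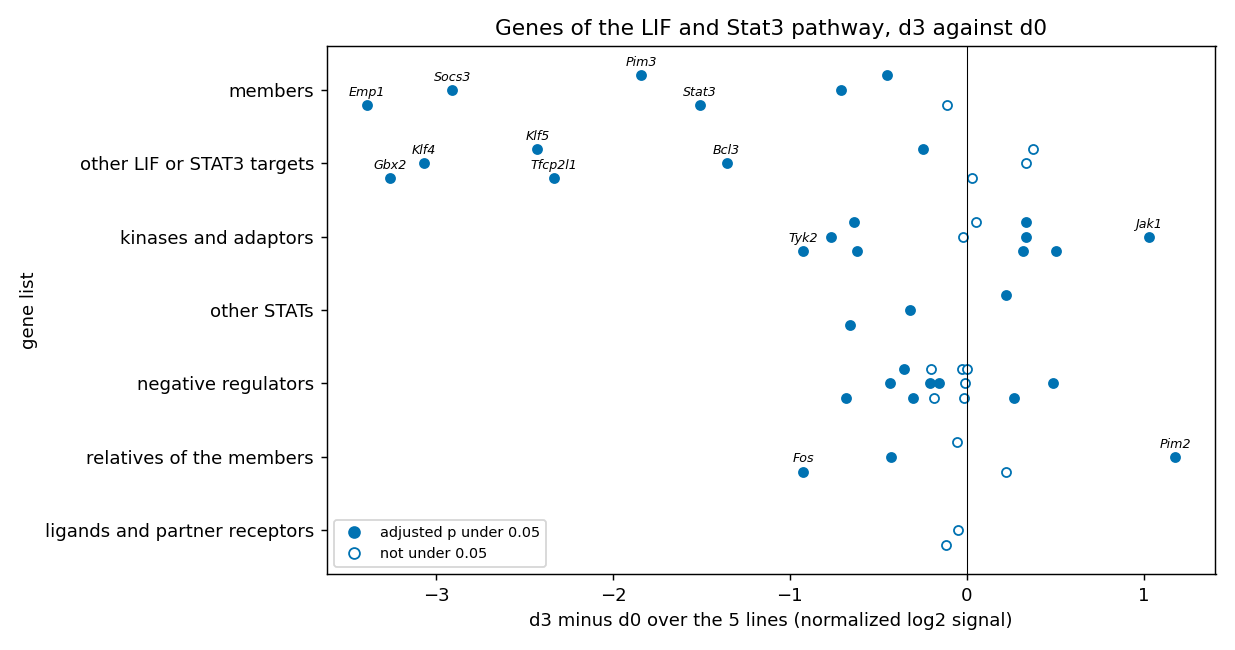
Log2 difference of d3 minus d0 over the 5 lines for the measured genes of each list, with filled points for adjusted p under 0.05 and open points for the rest. Genes past 0.8 in size are named. Points of a row are offset vertically for legibility. The members and the other LIF or STAT3 targets reach below -3, and kinases, adaptors and negative regulators lie on both sides of 0.

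Last, the genes whose profiles lay closest to each member were found by the root mean square distance of log2 signals over all 10 arrays. Each profile was centred on its own mean. Candidates were genes detected on every array on which the member was detected, so member signals not above background also enter the distances. Socs3 lay closest to Msc, a helix-loop-helix gene, at a distance of 0.16 over 10 arrays, then to Klf5 (0.43) and Jam2 (0.46). Emp1, detected on 6 of the 10 arrays, lay closest to Klf4 (0.31), then to Msc (0.47) and Jam2 (0.48), and its d3 signals at background are part of these distances. Stat3 lay closest to Grtp1 (0.17), Cavin1 (0.19) and Ltbp4 (0.22), and Pim3 to Acsbg3 (0.28), Stat3 (0.30) and Khdc3 (0.31). Socs3's own root mean square departure from its mean was 1.48, Emp1's 1.72, Pim3's 0.98 and Stat3's 0.78. Junb lay closest to Ap1m1 (0.13), against 0.40 for its own departure, and Lifr to Taf12 (0.06), against 0.24. Il6st had the flattest profile, with a departure of 0.12 and a nearest gene, Dhrs11, at 0.06. All arrays share the same contrast of days, so genes that fell by a like amount lie close by construction.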

How the data were processed

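Total RNA of 10 samples was amplified, biotinylated and put on Illumina mouse bead arrays. For 45281 probes per array, the authors deposited the mean intensity of the beads and a detection p-value, read with BeadStudio 3.2 per the labels. No deposited intensity was below 139, so background had not been subtracted and changes of dim probes are understated. The 16652 probes of a second table, which the authors deposited as log2 values after a detection filter and quantile normalization, lay within 0.044 of values recomputed here from the intensities by these steps. The series text names an RMA background correction and duplicate profiles, and 1 column per line and day was found.

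Probes detected (p at most 0.05) on 5 or more of the 10 arrays were retained, 17775 in number, and their log2 intensities were quantile normalized with limma 3.58.1 in R 4.3.3. On single arrays 16699 to 18837 probes were detected, and the number of arrays limits the precision. Genes were named from the platform table, which gave 1 symbol to 14281 kept probes (9401 symbols). A gene with more than 1 probe was represented by its brightest on average. Day and line effects were fitted with limma (line and day as terms, empirical Bayes, two-sided, 4 residual degrees of freedom and a prior of 4.06, p-values adjusted over 17775 probes by Benjamini-Hochberg, threshold 0.05). Differences between 2 arrays were counted at 0.5 with no test. The fit was tested on simulated data with known changes. Sequences were matched by symbol in a RefSeq table (GRCm38.p6), where all 8 genes had at least 1 window, 11 in all. Figures were drawn with matplotlib 3.10.9 in Python 3.11.15.

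The members and gene lists were chosen with earlier results of these data known. The genes named are the members, genes of the lists, and the 3 nearest profiles to each member. Alternatives covered background correction, normalization, filter, deposited table, unit of counting, variances, thresholds, the line term, pairing, the methods' t-test, the control array and leaving out each line.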

Additional observations from a re-analysis of the deposited data

Results flagged for a closer look

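In 21 comparisons of the 5 lines, made for the 7 genes at d3, at d0 and in their difference, 2 values stood apart from the other 4 lines by more than Dixon's 95% critical gap. Chance flags about 1 in 20 such groups. The Il6st signal of MMTR KD at d3 was 8.80, with the next line at 8.57. The Socs3 signal of MMTR-F at d3 was 8.51, with the next line at 8.99. Each rests on 1 array.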

How the results depend on the processing

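Each alternative changed 1 choice. The fall of Emp1, Socs3, Pim3, Stat3, Junb and Lifr over the lines passed the test in every alternative fit, with 15 for each gene and 14 for Emp1 and Lifr, which are not detected on all arrays. These counts include the fit paired by line, which repeats the main fit. RMA background correction gave -6.75 for Emp1, -4.30 for Socs3 and -1.77 for Lifr. Il6st never passed and turned to 0.0031 under median scaling (adjusted p = 0.97). The methods' t-test (one-sided, equal variances) called 6 of 7 genes lower at p under 0.05 and 6 after Benjamini-Hochberg adjustment. Among the 8 probes counted singly, 7 fell. The count of genes and lines lower at d3 by 0.5, 25 of 35, was 29 with normexp, 31 with RMA, 31 at a difference of 0.25 and 20 at a difference of 1. Differences from WT depended more on the processing. At d3 the count of 2 of 28 was 4 with normexp, 6 with RMA, 1 with median scaling, 7 at a difference of 0.25 and 0 at a difference of 1. At d0 the count of 6 was 10 with RMA, 12 at a difference of 0.25 and 1 at a difference of 1, and the cause of the changes under other background corrections was not tested. No member passed against WT over both days under any alternative run, and between 4 and 8 combinations of gene and line did so without adjustment. Leaving out each line in turn left 6 genes lower and 0 higher over the lines, and 0 against WT. Line is a term of the fit, which pairs the days of a line. A fit to the 5 differences paired by line is therefore the same fit, and its 6 of 7 genes lower are no further support. A single array for each line and day allows no test of the change within a line.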
